A study of Mus musculus with 32 samples.

Results

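Transcripts of 40 mouse genes that build, cut, cap, crosslink or pull on actin filaments were followed from the unfertilised egg through the 2-cell stage, in embryos with and without Trp53, the gene for the transcription factor p53. The 40 genes were taken by symbol from a list of actin cytoskeleton regulators, out of 54532 genes in the deposited table, and all 40 were found. They fall into 10 roles: the actins Actb and Actg1, monomer binding proteins (Pfn1, Pfn2, Tmsb4x, Tmsb10), filament severing proteins of the ADF/cofilin family (Cfl1, Cfl2, Dstn), 8 genes of the Arp2/3 complex, nucleators of unbranched filaments with N-WASP (Wasl, Diaph1, Fmn2, Spire1, Spire2), capping protein (Capzb, Capza1, Capza2), crosslinkers with vinculin (Actn1, Actn4, Vcl), non-muscle myosin II (Myh9, Myh10, Myl6, Myl9, Myl12a, Myl12b), ERM proteins (Ezr, Rdx, Msn) and small GTPases (Rhoa, Rac1, Cdc42).

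Each of the 32 libraries was made by SMART-seq v4 from a single egg or a single whole embryo. There were 3 WT and 3 KO eggs, 8 WT and 6 MZ-KO early 2-cell embryos (28 to 32 h after hCG, 2 to 3 h after the first cleavage) and 6 WT and 6 MZ-KO late 2-cell embryos (48 h after hCG), the embryos having been cultured in KSOM. WT animals were homozygous for a Trp53 flox allele and kept the gene; in KO animals a Ddx4::Cre driver, active in germ cells, had removed exons 2 to 10 of that allele. MZ-KO embryos came from KO females mated with KO males and so lack both the maternal and the zygotic gene, the mice being of a mixed background. The labels name neither the mothers nor the litters behind a group, so p-values measure the spread between single eggs or embryos. Each library is a whole egg or embryo and its values are shares of its own reads, so that a change in the total RNA of an egg or embryo cannot be seen in them.

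Actin polymerises from monomers that profilin and the thymosins hold and deliver, grows as branches from the Arp2/3 complex or as straight filaments from formins and Spire proteins, is capped by the capping protein heterodimer, and is taken apart by cofilins. Myosin II contracts the filaments, ERM proteins tie them to the plasma membrane, and small GTPases switch the nucleators and myosin on and off. In the mammalian egg this machinery is known for moving the meiotic spindle to the cortex, a step that needs Fmn2 and the Spire proteins, and afterwards for the cleavage furrow of each division. The mouse egg is transcriptionally silent, so its RNA is a store laid down during growth, and the bulk of zygotic transcription begins at the 2-cell stage.

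Levels are given in FPKM, fragments scaled to kilobases of gene and to the size of the library, as deposited. The low values of the table were whole multiples of 1 read when divided by the whole span of a gene, introns included (at least 99.4% of them in every library, within 0.1 read, for genes spanning 200 to 2000 bp), and not when divided by its exon length (at most 81%). A gene with long introns therefore has a low FPKM, and Fmn2 with a span of 320905 bp and 7960 bp of exons is the extreme case here. Levels of different genes are compared below only after rescaling to exon length. Genes were tested with limma on log2(FPKM + 1) where an FPKM of 1 was reached in a number of libraries no lower than the size of the smaller of 2 groups. The threshold for calling a change was an adjusted p below 0.05 (Benjamini-Hochberg over all genes tested). The 1 added to each value shrinks the difference of a gene with a low FPKM. Of the 40 genes, 31 were tested in at least one comparison and 9 in none: Ezr, Msn, Capzb, Actn1, Vcl, Spire2, Myh10 and Myh9, with spans of 36803 to 125074 bp, and Myl9, with a span of 6239 bp and a mean of 9.4 reads. As a second scale without length, reads recovered from the steps were analysed as log2(RPM + 0.5), RPM being a gene's reads scaled to the library's total, which brought 37 to 40 of the genes into each test. Of 85 differences called for members on the FPKM scale, 29 were more than 1.5 times as large on the RPM scale and 0 more than 1.5 times smaller, and the RPM value is given beside those named below.

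Depth recovered from the read step lay between 7220000 and 27600000 reads a library, with a median of 18400000. Trp53 itself was lower in the MZ-KO early embryos (0.311 to 1.10 FPKM) than in the WT early embryos (2.60 to 9.29), without overlap. It was not separated in eggs (6.16 to 10.2 in WT, 6.33 to 9.81 in KO) or in late embryos (0.557 to 7.09 in WT, 1.48 to 5.39 in MZ-KO). The value covers the whole gene, not only the deleted exons, and it does not check the labels of the eggs and late embryos, so the groups are called KO-labelled below. The 10 egg markers summed to a median of 3030 FPKM in WT eggs and 77.8 in WT late embryos, and the 11 markers of the 2-cell embryo to 28.9 and 1088. The 13 cumulus and granulosa markers stayed at or below 5.00 in sum in every library. One WT early embryo, library 3, stood apart from its group, with a median Spearman correlation of 0.808 to the others across genes, and leaving it out moved no count of called members by more than 1.5 times. The KO-labelled early libraries 1 to 3 and 4 to 6 did not overlap for 10 of the 25 members tested at that stage, against 28.6% of the 7675 genes.

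Promoter sequence was read for some of the genes on which the results turn, and for Vcl. Rdx was the member that fell furthest from egg to early embryo, and Cfl1 and Cfl2 rose furthest on the log2(FPKM + 1) scale. On the RPM scale Capzb and Myh10 rose further than Cfl2, with WT eggs at 0.002 to 0.143 FPKM for Myh10. Pfn1 was the member called between genotypes at the early stage. Vcl carries a binding motif of serum response factor and was called in no comparison between stages or genotypes. RefSeq start sites on GRCm38.p6 (mm10) were matched for 36 of the 40 genes. The 250 bases before the start are printed 5′ to 3′ on the gene's strand. Capitals mark matches, on either strand and with overlapping matches counted, to the SRF CArG box, to TATAAA as in a TATA box, and to CCAAT and GGGCGG.
Rdx, chr9:52046900-52047149, plus strand: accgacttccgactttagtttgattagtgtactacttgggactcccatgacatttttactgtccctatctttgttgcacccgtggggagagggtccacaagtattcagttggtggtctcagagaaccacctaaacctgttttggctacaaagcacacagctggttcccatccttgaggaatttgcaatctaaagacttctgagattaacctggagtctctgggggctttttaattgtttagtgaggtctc
Cfl1, chr19:5490205-5490454, plus strand: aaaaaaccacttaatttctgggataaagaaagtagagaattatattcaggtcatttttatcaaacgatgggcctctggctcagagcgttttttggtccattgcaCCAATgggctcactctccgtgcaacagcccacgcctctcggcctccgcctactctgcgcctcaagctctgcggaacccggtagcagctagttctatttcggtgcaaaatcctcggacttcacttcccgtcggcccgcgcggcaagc
Cfl2, chr12:54862878-54863127, minus strand: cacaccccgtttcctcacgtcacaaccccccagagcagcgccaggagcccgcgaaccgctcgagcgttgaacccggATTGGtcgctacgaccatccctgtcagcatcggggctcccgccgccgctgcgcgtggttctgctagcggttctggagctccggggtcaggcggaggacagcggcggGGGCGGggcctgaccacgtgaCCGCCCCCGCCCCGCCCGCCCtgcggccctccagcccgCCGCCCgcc
Pfn1, chr11:70654651-70654900, minus strand: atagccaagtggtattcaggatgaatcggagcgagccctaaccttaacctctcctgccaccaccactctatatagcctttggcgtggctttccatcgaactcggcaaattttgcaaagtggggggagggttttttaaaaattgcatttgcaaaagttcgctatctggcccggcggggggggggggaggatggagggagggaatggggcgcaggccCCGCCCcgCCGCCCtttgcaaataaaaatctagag
Vcl, chr14:20929148-20929397, plus strand: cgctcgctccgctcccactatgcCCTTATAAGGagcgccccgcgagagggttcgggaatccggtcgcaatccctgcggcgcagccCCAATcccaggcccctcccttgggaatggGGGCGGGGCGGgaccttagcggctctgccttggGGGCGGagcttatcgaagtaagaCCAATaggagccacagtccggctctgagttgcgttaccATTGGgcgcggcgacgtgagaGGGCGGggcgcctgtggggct

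The Rdx stretch held none of the motifs, Cfl1 held a single CCAAT, and Cfl2 held 6 GGGCGG matches and 1 CCAAT in sequence of 74.4% G and C. The CArG box, the site of the actin-sensing SRF pathway, was found in 5 of the 41 member windows (12.2%), against 482 of 32851 RefSeq windows (1.47%). Those 5 belonged to Actg1 (CCATATATGG, bases -90 to -81 from the start), Vcl (CCTTATAAGG, -227 to -218), Myl9, Arpc4 and one of the Myl6 windows. GGGCGG was found in 73.2% of member windows against 32.7% of all, CCAAT in 29.3% against 33.8% and TATAAA in 4.88% against 12.4%. These shares describe letters in a window and say nothing of whether a factor was bound.

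On the exon-length scale the leading member differed by stage. Rdx (radixin) was first in eggs, with a mean FPKM rescaled to exon length of 866.5 in WT, followed by Arpc2 at 110.9, Rac1 at 110.3 and Myl12a at 106.6. Cfl1, the cofilin found in most cells, was first in WT early embryos at 238.3, ahead of Cdc42 at 163.2. Cdc42, a GTPase that activates N-WASP, led the WT late embryos at 201.0, with Cfl1 next at 199.0. Those neighbours are close relative to their spread: Cdc42 ranged from 10.0 to 19.6 FPKM over the late WT embryos. The same genes led in the KO-labelled groups, at 993.8 for Rdx, 234.6 for Cfl1 and 209.6 for Cdc42. The 40 genes together summed to a median of 1876 in WT eggs, 1350 in WT early and 1007 in WT late embryos, and to 1967, 1537 and 1294 in the KO-labelled groups. No WT late sum (975.4 to 1140) reached a KO-labelled late one (1191 to 1370). The egg sums were also apart, at 1814 to 1878 in WT and 1951 to 2150 in KO-labelled eggs. The early sums overlapped (1237 to 1520 and 1378 to 1586). Rdx alone had a mean of 866.5 in WT and 993.8 in KO-labelled eggs, and of 78.5 and 111.1 in the early groups. Summed as deposited FPKM, the medians rose from egg to early, from 334.4 to 425.7 in WT and from 371.6 to 476.2 in KO-labelled groups. On that scale the genotypes overlapped in eggs (324 to 341.7 and 333 to 406.8) and late embryos (295.6 to 389.7 and 366.4 to 460.9). How often the sum of another set of genes separates the genotypes was not tested. At the bottom, Myl9, the smooth muscle light chain, was listed at 0 in all 6 eggs, and Tmsb4x, Spire2, Msn, Myl6, Tmsb10, Myh10 and Arpc1a had rescaled means of 0.0913 to 0.971 in WT eggs.

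**Figure D1:**
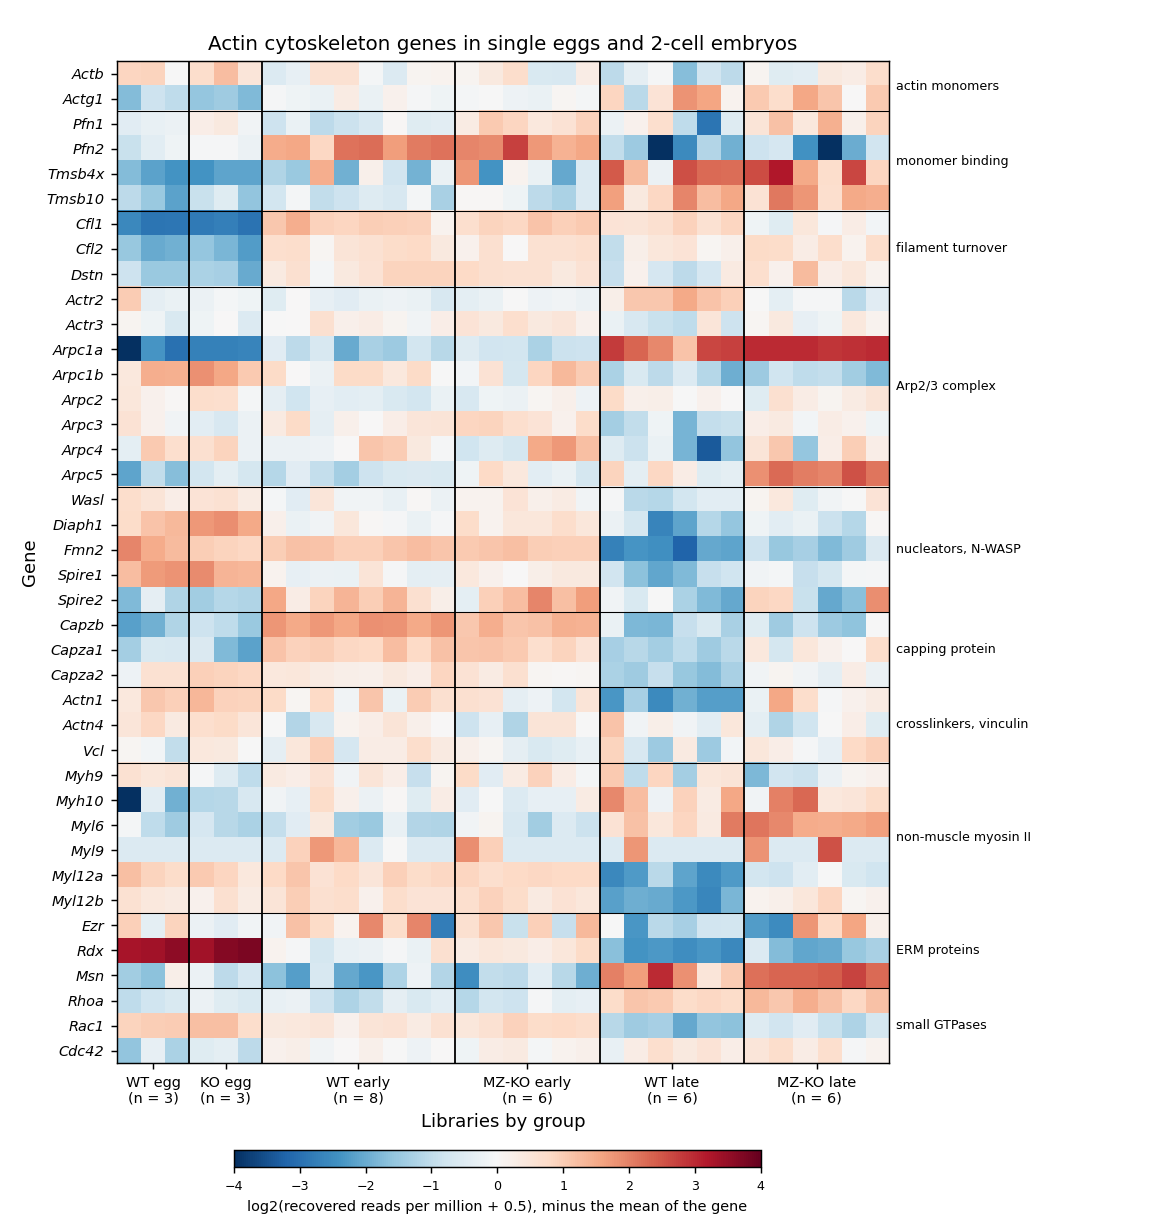
Level of each of the 40 genes (rows, by role) in each of the 32 libraries (columns, by group), as log2(recovered RPM + 0.5) minus the gene's mean over all libraries, with colours clipped at -4 and 4. Rdx is high in all 6 eggs and low in all 12 late embryos, Cfl1 and Cfl2 are low in eggs, and Arpc1a is high in late embryos.

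From egg to early 2-cell embryo the cofilin family rose and radixin fell, as shares of each library's reads. A higher or lower share need not be more or less RNA in the embryo. Whether a rise came from newly made RNA was not tested. Of 27 members tested in WT, 8 rose and 5 fell, where 51.3% of all 8619 genes were called (30.4% higher, 20.9% lower). The members' median difference was 0.04 on the log2(FPKM + 1) scale, beside 0.15 over all genes tested. All 3 cofilin family genes rose. Of 7 Arp2/3 genes tested 0 rose and 1 fell, while on the RPM scale Arpc1a rose (2.07, adjusted p = 0.00046) and 2 of 8 fell, Arpc2 and Arpc1b. In the KO-labelled groups 9 of 27 rose and 4 fell, with 49.2% of 8305 genes called (29.2% higher, 20% lower), a member median of 0.06 and an all-gene median of 0.09. Scaling the libraries by their median ratio lowered the all-gene medians to 0.06 and 0.02. The members then split 8 to 8 in WT and 9 to 9 in the KO-labelled groups. Of all genes, 28.3% were then higher and 24.3% lower in WT, and 27.3% and 23.7% in the KO-labelled groups.

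Cfl1 stood at 12.3, 9.71 and 9.93 FPKM in the 3 WT eggs and between 81.7 and 202.8 (median 141.5) in the 8 WT early embryos. Every early embryo was several times above every egg, a difference of 3.60 ± 0.22 (SE, log2 scale, adjusted p = 3.3e-07), or 12.1-fold. The KO-labelled samples ran the same course, from 10.2, 10.9 and 9.35 to between 117.3 and 162.2 FPKM (3.66 ± 0.13, adjusted p = 3.4e-07). Cofilin severs aged filaments and returns actin to the monomer pool. Cfl2, the cofilin best known from muscle, went from 17.6, 12.5 and 13.5 FPKM in WT eggs to between 53.3 and 89.3, again without overlap (2.31 ± 0.17, adjusted p = 1.4e-06). Dstn, which encodes destrin or ADF, stood at 1.14, 0.709 and 0.711 FPKM in WT eggs and 1.93 to 3.79 in WT early embryos. It rose by 1.13 (limma, adjusted p = 0.00017), and by 1.84 on the RPM scale. Rescaled to exon length, its mean in WT eggs was 12.5, beside 17.75 for Cfl1 and 18.08 for Cfl2. In WT early embryos the rescaled means were 45.25 for Dstn, 238.3 for Cfl1 and 94.71 for Cfl2.

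Rdx was at 89.1, 92.7 and 108.3 FPKM in WT eggs and between 5.53 and 14.3 (median 8.21) in WT early embryos. No early embryo came near any egg, and the fall was 3.36 ± 0.21 on the log2 scale, 10.2-fold, with an adjusted p of 4.6e-07. In the KO-labelled samples it went from 93.8, 114.6 and 124.4 FPKM to between 10.9 and 15.5 (difference -3.06, adjusted p = 1.3e-06). Rdx was the ERM gene whose RNA was high in these eggs; rescaled to exon length, its relatives Ezr and Msn had means of 1.41 and 0.275 in WT eggs beside 866.5 for Rdx. Spire1, a nucleator that works with Fmn2 on the egg's actin mesh, fell from 2.57, 3.59 and 3.80 FPKM in WT eggs to between 0.843 and 1.55 in WT early embryos, without overlap (difference -1.09, adjusted p = 5.5e-05; -1.70 on the RPM scale). It also fell in the KO-labelled groups, by 0.84 (adjusted p = 0.00062).

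Pfn2, the profilin best known from neurons, rose from 0.849, 1.21 and 1.44 FPKM in WT eggs to between 2.94 and 7.97 (difference 1.67, adjusted p = 0.00015). Pfn1, the common profilin, did not pass in WT (35.4 as the middle of 3 eggs against a median of 29.8; difference -0.22, adjusted p = 0.385). Capza1, an alpha subunit of capping protein, went from 0.619, 1.04 and 1.03 to between 2.81 and 3.78 FPKM in WT, with all embryos above all eggs (1.16 ± 0.13, adjusted p = 1.8e-05; 1.86 on the RPM scale). Its partner isoform Capza2 did not pass in WT (0.04, adjusted p = 0.876) and fell in the KO-labelled groups by 0.53 (adjusted p = 0.0187), a call lost without KO-labelled egg 1 or 2 (0.0625 and 0.056), without the filter (0.0599) and with only KO-labelled early libraries 1 to 3 (-0.34, adjusted p = 0.115). Cdc42 rose by 0.97 in WT (adjusted p = 0.00176) and by 0.70 in the KO-labelled groups (adjusted p = 0.00864). Arpc2, a core Arp2/3 subunit, fell in WT by 0.60, and Rac1, the GTPase upstream of Arp2/3, by 0.50. Tmsb10 rose by 0.61 and Wasl fell by 0.45 in WT with adjusted p values of 0.0247 and 0.029, and both calls were lost when WT egg 2 was left out (0.0664 and 0.0826). The Tmsb10 call was also lost without WT egg 3 (0.44, adjusted p = 0.142) and on the RPM scale (0.92, adjusted p = 0.103), and the Wasl call without WT egg 1 (-0.36, adjusted p = 0.129). Without the filter neither passed (adjusted p = 0.08 and 0.0798), and with all 6 groups in 1 fit Tmsb10 did not (0.0742). Arpc3 and Actr3, further Arp2/3 subunits, rose in the KO-labelled groups by 0.97 and 0.42 and did not pass in WT (0.07 and 0.24). The Actr3 value was 0.67 on the RPM scale, and its call was lost without KO-labelled egg 3 (0.33, adjusted p = 0.0873) and with only KO-labelled early libraries 4 to 6 (0.36, adjusted p = 0.0727). For Arpc3 the test of that difference between genotypes did not pass either (0.90, adjusted p = 0.18).

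The actins went different ways. Actb stood at 47.5, 48.9 and 25.6 FPKM in WT eggs, 17.9 to 40.3 (median 26.3) in WT early and 8.01 to 25 (median 14) in WT late embryos. Successive stages overlapped, and the call was made between early and late (-0.78 ± 0.25, adjusted p = 0.00944) and not between egg and early (-0.56, adjusted p = 0.12), where egg 3 was the low one; without egg 3 that fall passed (-0.86, adjusted p = 0.0452). Actg1 stood at 3.95, 7.60 and 6.65 FPKM in WT eggs, 11.1 to 17.1 (median 12.5) in WT early and 6.34 to 47.3 (median 22.4) in WT late embryos. It rose from egg to early without overlap (1.02 ± 0.19, adjusted p = 0.0008), while the wide late group did not pass against early (0.68, adjusted p = 0.0662) except with all 6 groups in 1 fit (adjusted p = 0.021). In the KO-labelled groups Actg1 rose at both steps, by 1.34 (adjusted p = 3.6e-05) and 0.96 (adjusted p = 0.00069), and Actb passed at neither. On the RPM scale and under median-ratio scaling Actb did fall from KO-labelled egg to early (-0.78 and -0.85, adjusted p = 0.0447 and 0.045), as it did with only KO-labelled early libraries 4 to 6 (-1.10, adjusted p = 0.022). Actb and Actg1 encode the beta and gamma cytoplasmic actins, which differ at only a few residues.

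**Figure D2:**
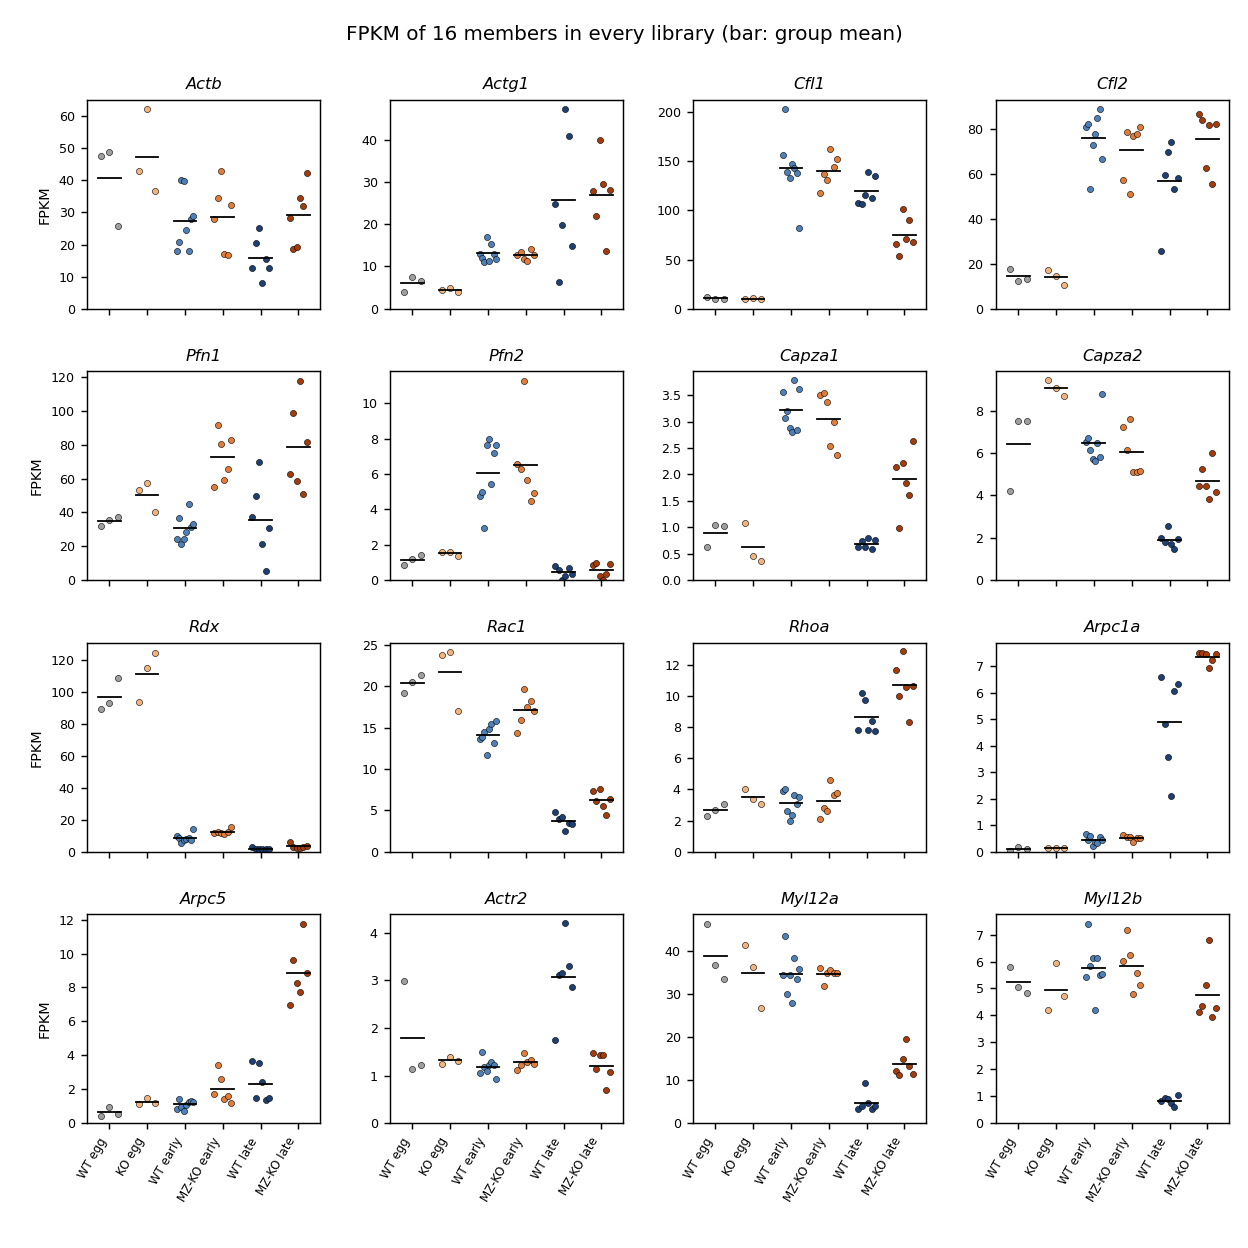
FPKM of 16 of the genes in every library, 1 panel a gene, with a dot for each egg or embryo and a bar at the group mean; groups are WT and KO-labelled eggs, early and late 2-cell embryos. Cfl1 lies between 9.35 and 12.3 in the 6 eggs and at 53.1 or above in every embryo, and Rdx lies at 89.1 or above in the eggs and at 15.5 or below in every embryo.

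From early to late 2-cell embryo more members fell than rose in WT. Of 27 tested, 8 rose and 14 fell, where 85% of 9319 genes were called (46.6% higher, 38.4% lower), with a member median of -0.39 beside 0.26 over all genes. In the KO-labelled groups 7 of 28 rose and 9 fell, with 81.7% of 8944 genes called (48.3% higher, 33.3% lower), a member median of -0.09 and an all-gene median of 0.39. Median-ratio scaling lowered these all-gene medians to 0.07 and 0.08. The members then had 8 rises and 16 falls in WT and 7 and 15 in the KO-labelled groups. Of all genes, 44.3% then rose and 41.5% fell in WT, and 42.6% and 39.7% in the KO-labelled groups. Differences at this step are thus best read against the all-gene medians. The Arp2/3 genes split evenly in WT, 4 up and 4 down of 8, both capping protein genes tested fell, and so did both regulatory light chains of myosin, Myl12a and Myl12b.

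Arpc1a and Arpc1b, alternative forms of the ARPC1 subunit of Arp2/3, moved in opposite directions. Arpc1a was at 0.214 to 0.677 FPKM in WT early and 2.09 to 6.58 (median 5.44) in WT late embryos, a rise of 1.97 ± 0.18 without overlap (adjusted p = 4.2e-08). On the RPM scale this rise was 3.36 (adjusted p = 5.3e-09), or 10.2-fold. Arpc1b was at 4.28 to 8.64 in WT early and 1.26 to 3.45 in WT late embryos, a fall of 1.19 (adjusted p = 3.2e-05). Both moves were called in the KO-labelled groups too, at 2.46 (3.78 on the RPM scale) and -1.37. Reads of Arpc1a are uncertain in part, since its span overlaps Kpna7 on the other strand, which had a mean of 4773 reads a library against 1224 for Arpc1a, and the kit does not mark strand. Arpc2 and Actr2 (encoding Arp2) rose in WT by 0.60 and 0.87 (Actr2 1.33 on the RPM scale), both with every late embryo above every early one. Arpc3, Arpc4 and Actr3 (encoding Arp3) fell in WT by 1.14, 0.76 and 0.39, with -1.64 and -0.71 for Arpc4 and Actr3 on the RPM scale.

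Myl12a was at 27.9 to 43.5 FPKM (median 34.4) in WT early and 3.27 to 9.41 (median 4.09) in WT late embryos, and fell by 2.69 ± 0.19 without overlap (adjusted p = 1.8e-09). Myl12b went from 4.20 to 7.41 (median 5.69) down to 0.591 to 1.03 (median 0.864), also without overlap (-1.87 ± 0.11, adjusted p = 3.6e-10). In the KO-labelled embryos Myl12a fell by 1.30 (adjusted p = 1.6e-06), while Myl12b did not pass (-0.25, adjusted p = 0.13) unless the libraries were scaled by median ratio (-0.61, adjusted p = 0.00122). These neighbouring genes encode near-identical light chains, phosphorylation of which switches myosin II on. Their reads are uncertain, since both spans overlap the lincRNA Gm26561 on the opposite strand (mean 9310 reads) and another gene model named Myl12b (5073). Myl6, the essential light chain, went the other way, from 0.251 to 1.32 FPKM (median 0.393) up to 1.29 to 4.61 (median 1.71), and rose in WT by 0.99 (adjusted p = 0.00021; 1.73 on the RPM scale).

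Pfn2 returned to a low level, from 2.94 to 7.97 FPKM in WT early to at most 0.793 in WT late embryos, 1 of which was listed at 0 (-2.28, adjusted p = 1.9e-08; -3.85 on the RPM scale). The thymosins, which hold monomers in reserve, rose: Tmsb10 from 0.791 to 2.32 up to 3.33 to 10.5 FPKM in WT (1.60, adjusted p = 3.4e-06), without overlap. Tmsb4x rose by 1.64 in WT (adjusted p = 0.00047; 2.49 on the RPM scale), with WT early library 3 at 3.02 against a group median of 0.379. Capza1 and Capza2 both fell in WT without overlap, by 1.31 (adjusted p = 1.5e-09; -2.20 on the RPM scale) and 1.36 (adjusted p = 3.1e-08). Rdx fell again, to between 1.52 and 2.84 FPKM in WT late embryos (-1.73, adjusted p = 1e-07). The small GTPases took different directions: Rhoa, which drives the cleavage furrow, rose from 1.99 to 4.02 up to 7.75 to 10.2 FPKM (1.23, adjusted p = 6.3e-07), Rac1 fell from 11.7 to 15.8 down to 2.51 to 4.84 (-1.70, adjusted p = 5.2e-09), and Cdc42 did not pass (0.26, adjusted p = 0.112). Rhoa overlaps the antisense gene Gm37401 and Rac1 overlaps Daglb, at means of 1185 and 1126 reads. Cfl1 and Cfl2 stayed high in WT without a call (-0.23 and -0.47, adjusted p = 0.222 and 0.051), and both became calls of a fall under median-ratio scaling (-0.48 and -0.71). Cfl2 also passed on the RPM scale (-0.48, adjusted p = 0.0369), at a minimum of FPKM 5 (0.049), with all 6 groups in 1 fit (0.02) and without WT early library 3 (-0.54, adjusted p = 0.0274).

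**Figure D3:**
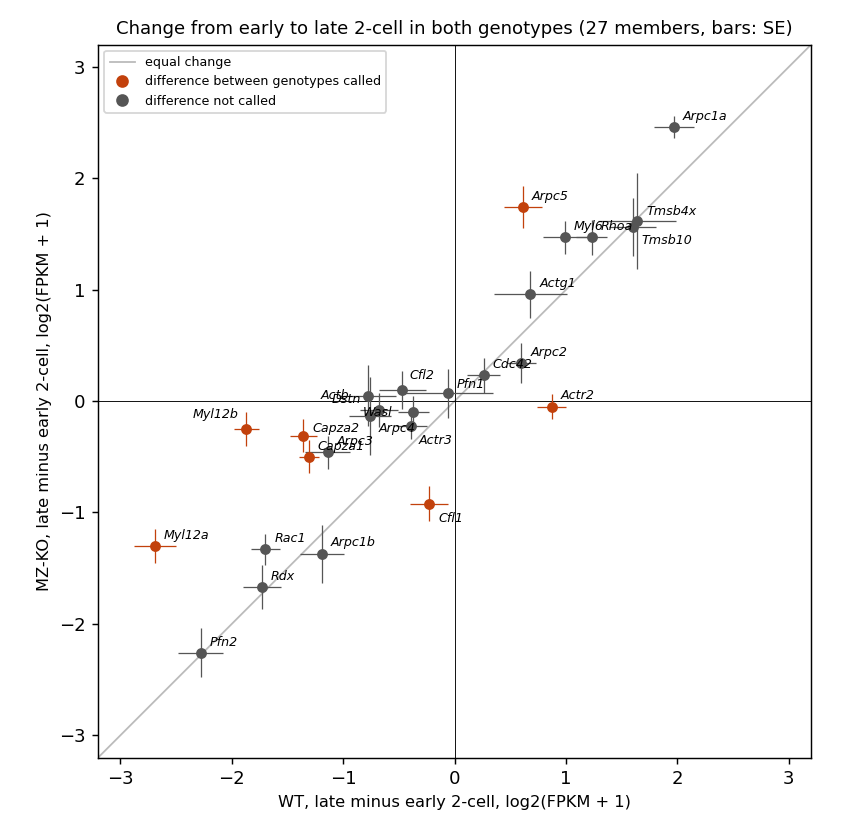
Change from early to late 2-cell embryo for 27 of the genes, as a difference on the log2(FPKM + 1) scale, in WT (x axis) and in KO-labelled embryos (y axis), with bars for 1 SE and orange for genes whose genotype difference changed between the stages. Arpc1a lies at 1.97 and 2.46, Pfn2 at -2.28 and -2.26, and Myl12b at -1.87 and -0.25, far from the diagonal.

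More of the members could be tested on the RPM scale, on which 11 of 38 members rose and 8 fell from egg to early embryo in WT (44% of 17841 genes called, 30.2% higher, 13.9% lower), and 10 of 39 rose and 22 fell from early to late (79.3% of 17699, 38.2% higher, 41% lower). In the KO-labelled groups 14 of 39 rose and 7 fell at the first step (39% of 16955, 25.7% higher, 13.4% lower), and 9 of 39 rose and 13 fell at the second (75.1% of 17207, 41.1% higher, 34% lower). Fmn2, the formin that the egg needs for spindle migration, was at 1.69, 1.23 and 1.06 FPKM in WT eggs, 0.850 to 1.04 in WT early and 0.046 to 0.104 in WT late embryos. Its fall from early to late was 3.57 on the log2 RPM scale (adjusted p = 2.3e-12), or 11.9-fold, and 2.28 in the KO-labelled embryos (adjusted p = 2.2e-08). Spire1 fell at this step as well, by 1.20 in WT (adjusted p = 7.5e-05). Diaph1, a formin, fell at both steps in WT, by 1.07 and 1.38. Spire2 rose and then fell in WT (2.03 and -1.89), from values that never passed 0.207 FPKM in any library, and its span overlaps Gm20388 on the same strand, with a mean of 45356 reads.

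Capzb, the beta subunit that pairs with either alpha subunit, was at 0.055, 0.067 and 0.113 FPKM in WT eggs, 0.775 to 0.961 in WT early and 0.071 to 0.222 in WT late embryos. It rose by 3.46 and then fell by 2.80 on the RPM scale (adjusted p = 8e-10 and 3.7e-09), with the early embryos above all others. The same 2 calls were made in the KO-labelled groups, at 2.39 and -2.25. Msn, encoding moesin, rose from early to late by 3.11 in WT and 3.72 in KO-labelled embryos, from a median of 0.0115 FPKM in WT early to 0.162 in WT late. Myh10, a heavy chain of non-muscle myosin II, rose at both steps in WT (2.48 and 0.95). Its WT eggs lay at 0.002, 0.143 and 0.048 FPKM, the lowest with 5 reads, and overlapped the WT early embryos (0.137 to 0.326). In the KO-labelled groups its first step was 0.76 (limma, adjusted p = 0.04). Actn1, an actin crosslinker, fell by 2.59 from early to late in WT (adjusted p = 7.6e-07) and did not pass in KO-labelled embryos (0.33, adjusted p = 0.452). Vcl, Myh9 and Actn4 were called in no comparison between stages or genotypes on this scale. Vcl overlaps Ap3m1, with a mean of 2685 reads, so its own level is uncertain.

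Between KO-labelled and WT eggs no member passed. Of 27 tested, 0 were called by limma, where 0.333% of 6607 genes were, and 3 members (and 577 genes) had an unadjusted p below 0.05. These were Pfn1, Arpc5 and Arpc3. Pfn1 was at 32.0, 35.4 and 37.3 FPKM in WT and 53.3, 57.5 and 40.2 in KO-labelled eggs, every KO-labelled egg above every WT one (0.50, adjusted p = 0.558). In 5 members all KO-labelled eggs were above all WT eggs and in 2 below, where 9.94% and 5.57% of genes were. On the RPM scale 0 of 37 members were called, where 0.197% of 14245 genes were (0.0632% higher).

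At the early 2-cell stage Pfn1 alone passed, 1 of 25 members tested, where 3.28% of 7675 genes were called (2.58% higher). It lay between 21.2 and 45 FPKM (median 29.8) in the 8 WT embryos and between 55.3 and 91.5 (median 73.2) in the 6 KO-labelled ones. The groups did not overlap, and the difference was 1.23 ± 0.17 (adjusted p = 0.0018), or 2.35-fold. Profilin 1 binds actin monomers and feeds them to formins. Its gene is at chr11:70651850-70654644 in mm10, 1.06 Mb from Trp53 (chr11:69580359-69591873). Of the other members on that chromosome, Myh10 at 0.76 Mb from Trp53 was not called in this comparison (-0.23 on the RPM scale, adjusted p = 0.608), nor were Actg1 and Actr2 at 50.75 and 49.47 Mb. Whether alleles linked to Trp53 had a part in the Pfn1 difference was not tested. Next were Arpc5 (0.48, adjusted p = 0.0842) and Rdx (0.49, adjusted p = 0.096). Over the members tested the difference was above 0 in 21 of 25, with a median of 0.09 beside 0.05 over all genes. Median-ratio scaling left 15 of 25 above 0, with a median of 0.02 beside 0 over all genes. The share of all genes above 0 was not counted. With only KO-labelled libraries 1 to 3, Arpc5 passed as well (0.75, limma, adjusted p = 0.0393). The count was then 2 of 26 members, where 1.46% of 8638 genes were called. With libraries 4 to 6 it was 1 of 26, where 2.75% of 8605 genes were. On the RPM scale Pfn1 was again the 1 member called, of 38, where 2.42% of 16401 genes were.

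At the late 2-cell stage 11 of 25 members tested were higher and 2 lower in KO-labelled than in WT embryos, where 31.9% of 8772 genes were called (18.5% higher, 13.4% lower). The median difference of the members was 0.54, beside 0.07 over all genes, and 22 of 25 were above 0. Median-ratio scaling left 20 of 25 above 0, with a median of 0.47 beside 0.01 over all genes. The groups did not overlap for 5 members above and 2 below, where this held for 8.21% and 5.48% of genes. The higher ones were both tested myosin regulatory light chains, 3 of 8 Arp2/3 genes, the tested capping subunit, Actb, Pfn1, Dstn, Rac1 and Wasl; Actr2 and Cfl1 were lower. Under median-ratio scaling Pfn1 and Wasl lost their calls (1.27 and 0.43, adjusted p = 0.0526 and 0.0792), which left 9 higher and 2 lower, while all genes went from 1624 higher and 1178 lower to 1346 and 1381. Without the filter on low values 8 of 40 members were higher and 2 lower, where 7.88% of 32759 genes were called (5.23% higher, 2.65% lower). Actb, Pfn1, Dstn, Arpc4 and Wasl then lost their calls (limma, adjusted p = 0.0771 to 0.127). With all 6 groups in 1 fit 15 of 25 were higher and 2 lower. That fit called 45.2% of 8772 genes (25.6% higher, 19.5% lower). Other markers also differed at this stage: the 11 markers of the 2-cell embryo summed to 551.6 to 1790 FPKM in WT and 232 to 660.8 in KO-labelled embryos. The 8 blood and immune markers summed to 16 to 23.2 in WT and 32.4 to 157.6 in KO-labelled embryos. Ptprc and the adult beta-globin gene Hbb-bt were at 0 in all 12. Of the 8 markers, 3 had a mean FPKM of 1 or more in WT late and 4 in KO-labelled late embryos. The part of either set of markers in the results was not tested.

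Myl12b was at 0.591 to 1.03 FPKM (median 0.864) in the 6 WT late embryos and at 3.96 to 6.79 (median 4.32) in the 6 KO-labelled ones. Every KO-labelled embryo was well above every WT embryo, a difference of 1.64 ± 0.15 (adjusted p = 4.2e-05). Myl12a was at 3.27 to 9.41 (median 4.09) and 11.2 to 19.6 (median 12.6), also apart (1.40 ± 0.23, adjusted p = 0.00071). For Myl12b the KO-labelled late embryos overlapped the KO-labelled early ones (4.80 to 7.18), and for Myl12a they lay below them (31.8 to 36.1). Myl6 did not pass (0.58, adjusted p = 0.0601) except with all 6 groups in 1 fit (0.0103), with ranges of 1.29 to 4.61 and 2.96 to 4.81 FPKM.

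Arpc5, a peripheral Arp2/3 subunit, was at 1.38 to 3.64 FPKM (median 1.95) in WT late and 6.99 to 11.7 (median 8.57) in KO-labelled late embryos. No overlap remained, and the difference was 1.61 ± 0.21 (adjusted p = 0.00019). Actr2 ran the other way, at 1.75 to 4.21 (median 3.13) in WT and 0.695 to 1.47 (median 1.28) in KO-labelled embryos (-0.87 ± 0.17, adjusted p = 0.00208; -1.33 on the RPM scale). Arpc3 and Arpc4 were higher by 1.00 and 0.82 (adjusted p = 0.00317 and 0.0235), with some overlap, and Arpc4 by 1.67 on the RPM scale. Reads of Arpc4 are uncertain in part, since its span overlaps Ttll3 on the same strand, at a mean of 232 reads against 398.9 for Arpc4. Arpc1a had all KO-labelled embryos (6.92 to 7.5) above all WT ones (2.09 to 6.58) and missed the threshold (0.56, adjusted p = 0.0573). It passed on the RPM scale (0.68, adjusted p = 0.0472), at a minimum of FPKM 5 (0.0498) and with all 6 groups in 1 fit (0.00173). The Arp2/3 genes, whose proteins work in a fixed complex, did not share a direction.

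Cfl1 was at 106.3 to 139.3 FPKM (median 114) in WT late and 53.1 to 101.2 (median 69.4) in KO-labelled late embryos, and was lower by 0.69 ± 0.16 without overlap (adjusted p = 0.00699). Cfl2 did not pass (0.46, adjusted p = 0.155), and Dstn was higher by 0.63 (adjusted p = 0.0337; 0.95 on the RPM scale). Capza2 was at 1.46 to 2.56 FPKM (median 1.88) in WT and 3.81 to 6.02 (median 4.45) in KO-labelled embryos, again apart (0.96 ± 0.15, adjusted p = 0.00045). Capza1 was not tested on the FPKM scale; it lay at 0.599 to 0.791 in WT and 0.991 to 2.63 in KO-labelled embryos, and differed by 1.39 on the RPM scale (adjusted p = 0.00069). Actb was at 8.01 to 25 in WT and 18.5 to 42.2 in KO-labelled embryos (0.87, adjusted p = 0.0275), with overlap. Actg1 did not pass (0.25, adjusted p = 0.679), and its 95% interval ran from -0.65 to 1.14. Pfn1 was at 5.66 to 69.6 in WT and 50.7 to 117.8 in KO-labelled embryos (1.37 ± 0.47, adjusted p = 0.041). Rac1 and Wasl were higher by 0.62 (adjusted p = 0.0131) and 0.50 (adjusted p = 0.0467), while Rhoa and Cdc42 did not pass (0.28 and 0.06).

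**Figure D4:**
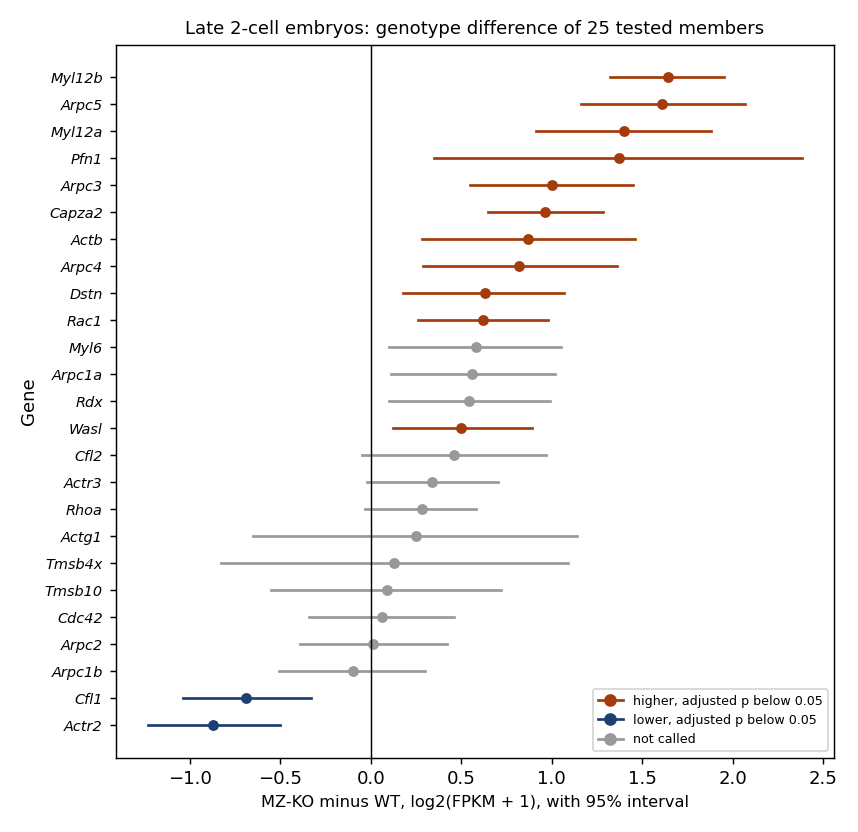
Difference between KO-labelled and WT late 2-cell embryos (6 each) for the 25 genes tested, on the log2(FPKM + 1) scale with 95% intervals from limma. Myl12b at 1.64 and Arpc5 at 1.61 lie furthest to the right, and Actr2 at -0.87 and Cfl1 at -0.69 are the 2 genes with intervals wholly below 0.

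Counted as RPM, 17 of 39 members were higher and 2 lower at the late stage, where 24.9% of 16816 genes were called (16.8% higher, 8.08% lower). Among those added by this scale were 2 nucleators of the egg: Fmn2, at 0.046 to 0.104 FPKM in WT and 0.127 to 0.296 in KO-labelled late embryos without overlap (1.25, adjusted p = 0.00321), and Spire1 (1.00, adjusted p = 0.0115). Actn1 was at 0.006 to 0.021 in WT and 0.050 to 0.191 in KO-labelled embryos, also without overlap (2.50, adjusted p = 0.00091). Capzb and Myh10 did not pass (0.14 and 0.01).

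Whether a genotype difference itself changed between stages was tested as a contrast in a single fit of 4 groups. From early to late it changed for 7 of 29 members, up in 5 and down in 2, where 20.4% of 11558 genes were called (12% up, 8.4% down). Up were Myl12b (1.62 ± 0.17, adjusted p = 6.8e-07), Myl12a (1.39), Arpc5 (1.14), Capza2 (1.05) and Capza1 (0.82), and down were Actr2 (-0.93 ± 0.16, adjusted p = 0.00024) and Cfl1 (-0.69, adjusted p = 0.0344). On the RPM scale Myl12b was at 2.45, Capza1 at 1.48 and Actr2 at -1.45. The Cfl1 call was lost with KO-labelled early libraries 1 to 3 alone (-0.57, adjusted p = 0.176) and without the filter (adjusted p = 0.0779). For Pfn1 the genotype difference was 1.23 early and 1.37 late, and the contrast was 0.14 (adjusted p = 0.882). From egg to early it changed for 0 of 29 members by limma, where 0.351% of 9676 genes were called and 4 members (1151 genes) had an unadjusted p below 0.05. Pfn1 was at 0.73 in that contrast (adjusted p = 0.314).

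For 9 pairs of related members the log2 ratio of FPKM (each + 0.1) was compared between groups in each library, by exact two-sided permutation tests over libraries. Where both members lie well above 0.1, scaling between libraries cancels in this ratio, and a change in it shows that the pair's members changed unequally. Ratios with a member near or below 0.1, such as Spire2 and Arpc1a in eggs and Actn1 in WT late embryos, depend on the value added. So do those of Pfn2 in late embryos, where 1 library of each genotype was listed at 0. Of 63 tests, 25 passed after Benjamini-Hochberg adjustment. Arpc1a to Arpc1b was -5.82 ± 0.24 (SD, n = 3) in WT eggs, -3.67 ± 0.66 (n = 8) in early and 0.94 ± 1.03 (n = 6) in late embryos. Arpc1a lay at 0.034, 0.166 and 0.1 FPKM in the WT eggs, so the egg ratio and its SD depend on the 0.1 added. With 1 added, the KO-labelled step from egg to early was 1.32 in place of 2.42 and lost its call (adjusted exact permutation p = 0.06). Rescaled to exon length, Arpc1b was the more abundant in every egg and early embryo and Arpc1a in every late embryo. The step to the late stage was 4.61 (exact permutation p = 0.000333, the smallest these groups can give; adjusted 0.0163), and 5.27 in the KO-labelled groups. Actb to Actg1 was 2.72 ± 0.81 in WT eggs, 1.00 ± 0.51 in early and -0.52 ± 1.47 in late embryos (steps of -1.72 and -1.53, adjusted exact permutation p = 0.0225 and 0.0394). The second of these calls was lost when any 1 egg was left out (adjusted exact permutation p = 0.0519 to 0.0548). Its difference stayed at -1.53, since eggs enter it only through the adjustment over all 63 tests. The call was also lost without WT early library 3 (-1.40, adjusted exact permutation p = 0.0787). Rescaled to exon length, the linear ratio of Actb to Actg1 was 4.88 to 15.2 in WT eggs, 1.49 to 4.58 in WT early and 0.214 to 4.09 in WT late embryos, so that either actin could lead at the late stage.

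Pfn1 to Pfn2 went from 4.82 in WT eggs to 2.34 in early and 6.02 in late embryos, with Pfn1 ahead in every library. At the early stage it was higher by 1.16 in KO-labelled embryos (exact permutation p = 0.00233, adjusted 0.0163). Cfl1 to Cfl2 rose from -0.44 in WT eggs to 0.89 in early embryos and was 1.13 ± 0.48 in WT against -0.03 ± 0.58 in KO-labelled late embryos. That difference of -1.16 had the smallest p that 6 against 6 can give (exact permutation p = 0.00216, adjusted 0.0163). Rescaled to exon length, the linear ratio of Cfl1 to Cfl2 was 2.22 to 5.59 in WT and 0.845 to 2.18 in KO-labelled late embryos, without overlap. Actn4 to Actn1 differed at the late stage as well, at 3.29 in WT and 1.97 in KO-labelled embryos, and this call was lost with 1 in place of 0.1 added (-0.40, adjusted exact permutation p = 0.0657). Spire1 to Spire2 went from 4.88 in WT eggs to 2.50 in WT early embryos. Between WT and KO-labelled eggs no pair could pass, the smallest exact permutation p with 3 against 3 being 0.1. The ratio calls between WT eggs and WT early embryos were lost when any 1 WT egg was left out (adjusted exact permutation p = 0.056), since the smallest p is then larger.

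**Figure D5:**
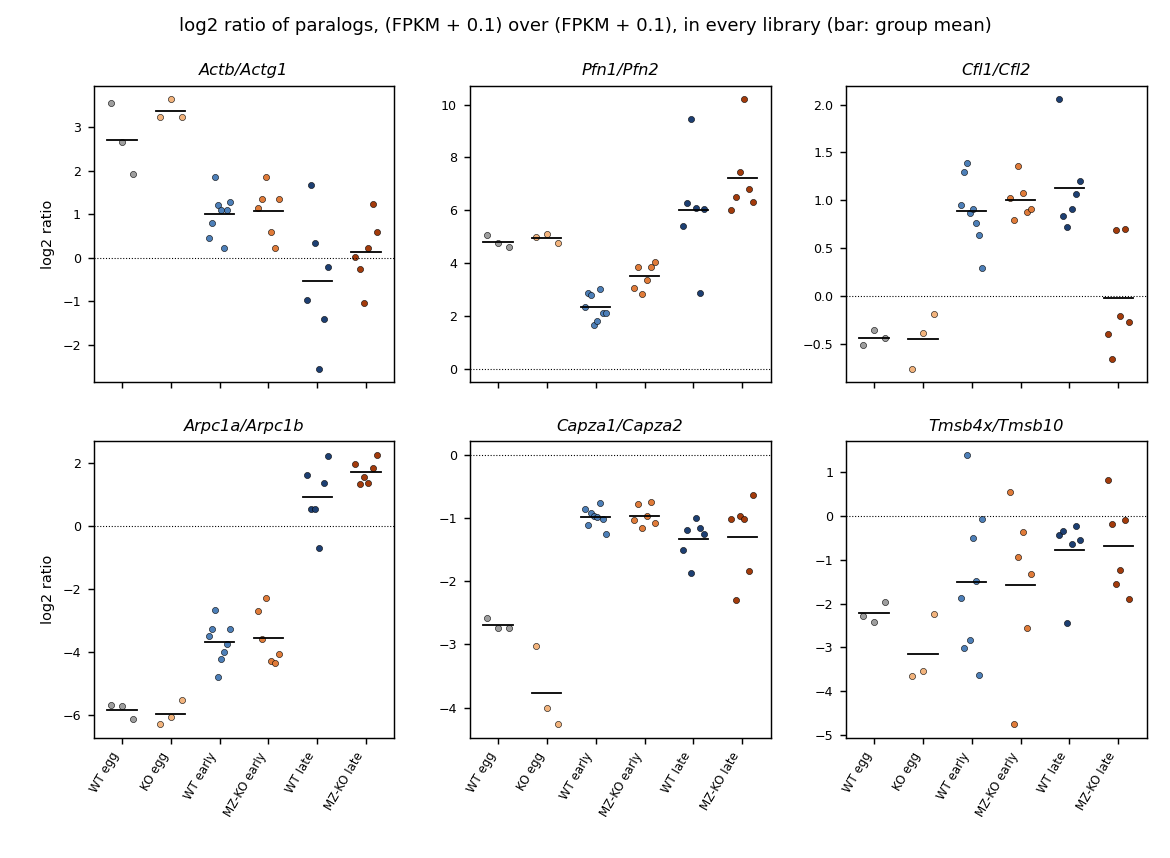
Log2 ratio of FPKM (each + 0.1) within 6 pairs of related genes, a dot for each library and a bar at the group mean, across WT and KO-labelled eggs, early and late embryos. Arpc1a to Arpc1b runs from a mean of -5.82 in WT eggs, where Arpc1a is near the 0.1 added, to 0.94 in WT late embryos. Cfl1 to Cfl2 separates WT from KO-labelled late embryos at means of 1.13 and -0.03.

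Of 131 further genes of the actin pathway, outside the 40, 130 were in the table and 33 to 43 were tested in each comparison. From egg to early embryo in WT 9 of 38 rose and 8 fell, where 51.3% of all genes were called. The largest rises were Arhgdia (3.49, adjusted p = 5.2e-07), which holds small GTPases inactive in the cytosol, and Srf (1.66, adjusted p = 0.00149), the transcription factor of the CArG box. The largest falls were Ssh2 (-1.85), a phosphatase that activates cofilin, and Rac3 (-1.33). From early to late in WT 10 of 37 rose and 21 fell (85% of all genes called), and the fall included all 8 tested genes of filament turnover and monomer handling, such as Pfn4 (-1.98), Twf2 (-1.61), Wdr1 (-1.34) and Gmfb (-0.91). The largest rises were Tpm3 (2.70), a tropomyosin that coats filaments, and Myo19 (2.68), a mitochondrial myosin. Between genotypes 0 of 36 passed in eggs (0.333% of all genes), and at the early stage 1 of 33 did (3.28% of all genes), Actl6a (0.94, adjusted p = 0.00182), an actin-like subunit of chromatin remodellers. At the late stage 7 of 33 were higher and 3 lower, a share near the 31.9% of all genes called, with Coro1a (1.86, adjusted p = 0.00011), an Arp2/3-binding coronin typical of leukocytes, at one end and Tpm3 (-0.60) at the other. The blood and immune marker sums given above were also higher in KO-labelled late embryos, and their part in the Coro1a value was not tested. That list holds globin genes as well as immune ones. Its leukocyte gene Ptprc was at 0 in every late embryo of either genotype. Its other immune genes, Cd68, Lyz2 and Cd14, were not at 0 throughout either late group. These lists were chosen with earlier results of the same data known, so their counts are a description.

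The authors' deposited table of a comparison at the late stage, whose values follow the WT to MZ-KO ratio (Pearson correlation 0.92 across genes with the log ratio of late embryos), gave all 40 members an adjusted p. Of these, the authors' deposited table had 14 below 0.05, with 11 lower and 3 higher in WT, where 20.6% of 23684 genes in the authors' deposited table were (10.6% lower, 10% higher). Of those 14 in the authors' deposited table, 9 were called here in the same direction, and the others were not tested on the FPKM scale. The authors' deposited table put Myl12b at a log2 fold change of -2.32 (adjusted p = 4.52e-28), Actn1 at -2.94, Capza1 at -1.25, Actr2 at 1.56 and Cfl1 at 0.88. For Pfn1, Actb, Dstn and Wasl, all called here, the authors' deposited table gave -0.94, -0.67, -0.72 and -0.51. Their adjusted p values in the authors' deposited table were 0.122, 0.106, 0.0655 and 0.0908. Actn4, at 0.84 (adjusted p = 0.0237) in the authors' deposited table, was not called here on the RPM scale.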

How the data were processed

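Single eggs and 2-cell embryos were profiled by RNA-seq. The authors deposited FPKM values for 54532 genes in 32 libraries, with log2 fold changes, their errors and adjusted p-values of a comparison in the same table; TopHat2, DESeq, DESeq2 and mm10 are named, without versions, in the submitters' processing notes. The deposited log2 fold changes carry no group names and are identified here only by their correlation. A header with transposed letters was read as late KO, since the authors' mean of that group equals the mean of those columns within 3.3e-06. Genes were matched to GENCODE M21 (54409 IDs). Libraries were grouped by the labels and numbered in column order, because the headers carry no replicate numbers; the design text gives 6 early embryos, while 8 WT ones are in the table. The number of columns of other samples was 0.

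Differences were tested with limma 3.58.1 (R 4.3.3, statmod 1.5.0, trend and robust moderation) on log2(FPKM + 1) for genes reaching an FPKM of 1 in a number of libraries no smaller than the smaller group, using only the groups compared. Adjusted p is Benjamini-Hochberg over all genes tested. Paralog ratios were tested by exact permutation. Alternatives were a pseudocount of 0.1, a minimum of FPKM 5 or none, median-ratio scaling, 1 fit of all 6 groups, reads recovered from the FPKM steps and scaled to library size (RPM, 20 reads or more), and left-out libraries. The code was tested on simulated data. Other tools were Python 3.11.15, pandas 2.3.3, numpy 2.4.6, scipy 1.17.1 and matplotlib 3.10.9.

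All 40 members are accounted for. Library values are given for the actins, for Fmn2, Spire1 and Spire2, for members called between genotypes, and for the 4 largest called rises and falls of each WT step, 26 in all; of other pathway genes the 2 largest rises and falls of each WT step are named. Others (Dstn, Cdc42, Capzb, Msn, Actn1, Myl6 and the pathway genes named beyond that rule) were chosen after their values were seen. The members and lists were chosen with earlier results of these data known. Protein sequences were not used here, and RefSeq promoters of Actb, Rac1, Spire1 and Diaph1 were not matched.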

Additional observations from a re-analysis of the deposited data

Results flagged for a closer look

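In groups of 6 or 8 libraries, single values far from the rest of their group were found in 10 of 104 groups of members examined, by Dixon's 95% critical value, which chance passes in about 1 in 20 groups of normally distributed values; whether these FPKM values are so distributed was not tested. These were Pfn2 at 11.2 FPKM in KO-labelled early library 3, Tmsb4x at 3.02 in WT early library 3 and at 3.79 in KO-labelled early library 1, Arpc2 at 10.2 in WT late library 1, and Wasl at 4.30 in WT early library 3. The others were Capza2 at 8.78 in WT early library 8, Myl12a at 31.8 in KO-labelled early library 2 and at 9.41 in WT late library 3, and Rdx at 15.5 in KO-labelled early library 6 and at 2.84 in WT late library 1. WT early library 3 is the embryo that stood apart from its group over all genes, and WT early library 8 is the shallowest, at 7220000 reads.

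The genotype difference (KO-labelled minus WT) changed from early to late, by limma's test of the contrast, for Myl12b (1.62), Myl12a (1.39), Arpc5 (1.14), Capza2 (1.05), Capza1 (0.82), Actr2 (-0.93) and Cfl1 (-0.69), on the log2(FPKM + 1) scale.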

How the results depend on the processing

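No paired analysis was possible because the columns carry no replicate numbers. At a minimum of FPKM 5, 8 of 15 members were called in WT from egg to early, where 59.1% of genes were. At FPKM 1 this was 13 of 27 and 51.3%. From early to late it was 11 of 15 and 89.1% in WT (22 of 27 and 85% at FPKM 1). In KO-labelled embryos that step gave 9 of 16 and 86.6% (16 of 28 and 81.7% at FPKM 1). Between genotypes late it was 7 of 14 and 40.4% (13 of 25 and 31.9% at FPKM 1). Recovered RPM gave 21 of 39 members in the KO-labelled step from egg to early, where 39% of 16955 genes were called. On the FPKM scale this was 13 of 27 members and 49.2% of 8305 genes. Use of only KO-labelled early libraries 1 to 3 was an alternative chosen after seeing the data. With it 2 of 26 members and 1.46% of genes differed between genotypes early, in place of 1 of 25 and 3.28%. The Arpc4 difference from KO-labelled egg to early went from 0.06 to -0.66 with libraries 1 to 3 (limma, adjusted p = 0.0384). With only libraries 4 to 6 it was 0.78 (limma, adjusted p = 0.0268), a call in the other direction. The Capza1 to Capza2 ratio from WT early to late was 0.04 with 1 added in place of -0.35 with 0.1 added (adjusted exact permutation p = 0.801). Leaving out 1 egg gave 12 to 14 called of 28 members from egg to early, in WT and in the KO-labelled groups. Of all genes 39.7% to 40.4% were then called in WT and 35.4% to 40.4% in the KO-labelled groups. Between eggs the count was 0 of 27, where 0.0852% to 0.547% of genes were called. Leaving out WT early library 3 gave 13 of 27 members from WT egg to early (53.7% of genes) and 23 of 27 from WT early to late (85.2%). It gave 1 of 25 between genotypes early (3.34%). For the change of the genotype difference from early to late it gave 9 of 29 (21.1%) in place of 7 (20.4%). Calls of paralog ratios were 17 to 24 in place of 25 over these runs. The cause of these shifts was not tested, apart from the genes or libraries that a setting takes out or brings in by construction. Low FPKM kept 9 genes out of the FPKM tests, and Myl9, at a mean of 9.4 reads, was also left out of the RPM tests between 2 groups.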
